A study of Rattus norvegicus with 48 samples.

Results

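The miR-193 and miR-365 miRNAs were followed in the liver of male Sprague-Dawley rats that received thioacetamide (TAA), a compound that damages the liver, once a day. The miRNAs were chosen by name, as every mature miRNA of the raw count table whose name starts with rno-miR-193 or rno-miR-365, and 6 of the 764 listed were found, among them rno-miR-193a-3p and rno-miR-365-3p, which led the choice. They come from 3 precursors, and 4 of the 6 passed the filter on low values (at least 5 RPM, reads scaled to a fixed library total, in at least 3 libraries) together with 297 other miRNAs, so that 301 miRNAs were tested. Rats received the low dose (4.5 mg/kg), the middle dose (15 mg/kg), the high dose (45 mg/kg) or vehicle alone for 3, 7, 14 or 28 days, with 3 rats and so 3 libraries in each of the 16 groups. All groups were sacrificed 24 h after the last dose, and the 3 doses of a time point share the same 3 control libraries. Each library came from a piece of whole liver, so that fewer cells of a type and less miRNA per cell cannot be told apart.

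A miRNA is cut from a hairpin precursor that can give a mature strand from either arm, named 5p and 3p. The mature strand guides a silencing complex to messenger RNAs, mostly through its seed, the bases 2 to 8. The miR-193 and miR-365 genes lie beside each other in mammalian genomes, and the miR-193b and miR-365 cluster is known for its role in brown fat cells, where it was linked to a block of the muscle programme. In liver cancer, miR-193a-3p is described mostly as a brake on growth.

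The mature sequences of the 4 tested miRNAs are shown because the first and the third share a seed and are told apart by few bases. They were taken from RefSeq (build GRCr8), in which all 6 miRNAs were matched by name, and the seed is in capitals.
miR-193a-3p: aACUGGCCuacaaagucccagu
miR-365-3p: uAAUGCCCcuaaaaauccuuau
miR-193b-3p: aACUGGCCcacaaaguccc
miR-193a-5p: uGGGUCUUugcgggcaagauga
No other miRNA of the RefSeq table has the seed of miR-365-3p or of miR-193a-5p, and the seed of miR-193a-3p is held by 1 other miRNA, miR-193b-3p. Over the 19 bases that miR-193b-3p has in RefSeq, miR-193a-3p and miR-193b-3p differ by 1 base, U9C, counted from the 5′ end of miR-193a-3p. Reads of such near-identical miRNAs are told apart by that base and the read's end, and their split is uncertain to that extent. The hairpin of miR-193a (gene Mir193, chr10:65170317-65170402, plus strand) is given with its 5p and then its 3p arm in capitals, since both arms were tested.
Mir193 hairpin: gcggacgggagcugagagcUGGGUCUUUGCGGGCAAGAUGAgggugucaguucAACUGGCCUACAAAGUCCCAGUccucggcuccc
The hairpin of miR-365 (gene Mir365b, chr10:65184217-65184302, plus strand) follows on the same strand, with 13814 bases between the hairpins. The hairpin of miR-193b (gene Mir193b, chr10:1824944-1825026, plus strand) lies elsewhere on the same chromosome.

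The 3p arms were the abundant ones. miR-193a-3p had a mean of 299 RPM over the 48 libraries (rank 90 by mean RPM), miR-365-3p 279 RPM (rank 94) and miR-193b-3p 155 RPM (rank 112). The 5p arm of miR-193a had a mean of 5.98 RPM. Summed over all libraries, the 5p arm made up 1.86% of the reads of both arms for miR-193a (2763 reads, 95% exact binomial interval 1.79% to 1.93%), 0.470% for miR-193b (281 reads, 0.417% to 0.528%) and 0.0419% for miR-365 (57 reads, 0.0317% to 0.0543%), intervals that cover counting error only. miR-193b-5p had 0 to 13 reads in a library and miR-365-5p 0 to 5 reads, with none in 16 libraries, and neither was tested. The RefSeq sequence of miR-365-5p has 17 bases and the authors kept reads of 18 to 25 bases.

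Library totals ran from 293331 to 14906217 reads with a median of 10237542, and the lowest total but one was 4829217. The lowest, control 3-d replicate 1, stood apart. Its 3 red blood cell miRNAs summed to 98039 RPM (859 to 8757 RPM in the other 47 libraries) and its 5 hepatocyte miRNAs to 150925 RPM (272296 to 373606 RPM in the others). It held 45 reads of miR-193a-3p, 115 of miR-365-3p, 468 of miR-193b-3p and 4 of miR-193a-5p. Its miR-193b-3p level, 1595 RPM, was 13.5 times the median of the other libraries. The 3-d comparisons that follow are given with and without it. In the other 47 libraries the hepatocyte miRNAs were abundant. In the following, levels of single miRNAs are RPM after upper quartile normalization over all 48 libraries, and fold changes come from fits of the 3 treated and 3 control libraries of a condition. Sums of marker miRNAs are RPM without this normalization, so they are not on the same scale as the levels and fold changes. A sum follows its most abundant members, and the calls of its members are given with it.

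**Figure D1:**
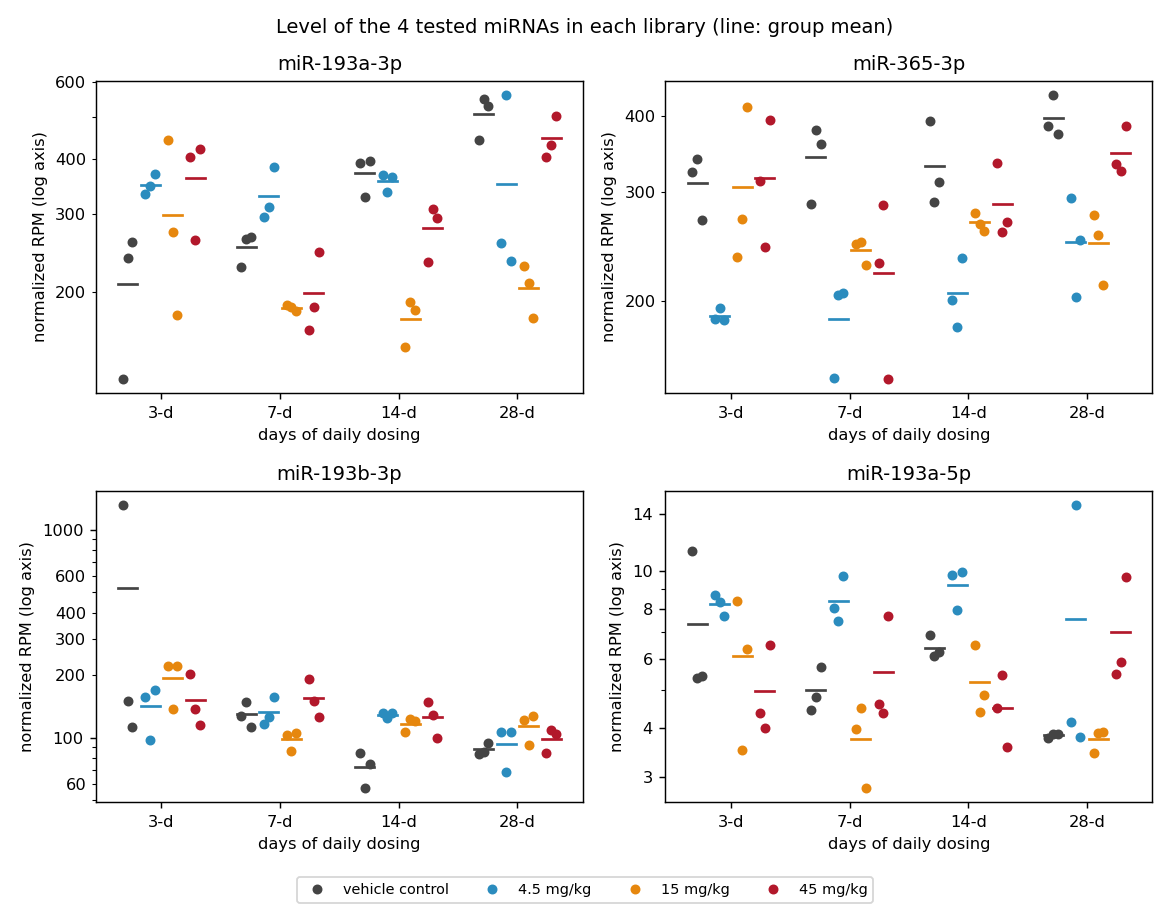
Normalized RPM (log axis) of the 4 tested miRNAs by days of dosing, with 1 point per library, coloured by dose, and a line at the mean of each group of 3. Control miR-193a-3p is highest at 28-d (443 to 550), the 15 mg/kg libraries stay at or below 229 from 7-d on, and the single miR-193b-3p point at 1319 is control 3-d replicate 1.

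A condition was called a differentially expressed miRNA (DEM) where the unadjusted p was below 0.05 and the fold change above 1.5, the rule of the study, in edgeR's quasi-likelihood test, and p-values adjusted over all 301 miRNAs stand beside it. The 2 leading miRNAs, miR-193a-3p and miR-365-3p, were picked by calls that were known from these data. The low dose for miR-365-3p and the middle dose at 14-d for miR-193a-3p are therefore given as values without a test. Other tests of these miRNAs that use the same control libraries are not independent of the choice. In the 43 remaining pairs of a tested miRNA and a condition there were 8 DEM calls (18.6%), 3 lower and 5 higher, beside 18.1% of all 3612 such pairs over the 301 miRNAs (5.98% lower and 12.1% higher). The share of calls was therefore near the background, and it says nothing particular about these miRNAs. With the adjusted p below 0.05 and the same fold, 5 of the 8 remained, 11.6% beside 11.1% over all miRNAs (15.3% passed the adjusted p alone). The ranges of the treated and the control libraries did not overlap in 23 of 48 pairs (47.9%), beside 35.5% over all miRNAs. All of the known conditions are among the 23, so this share is not independent of the choice and says nothing particular about these miRNAs.

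**Figure D2:**
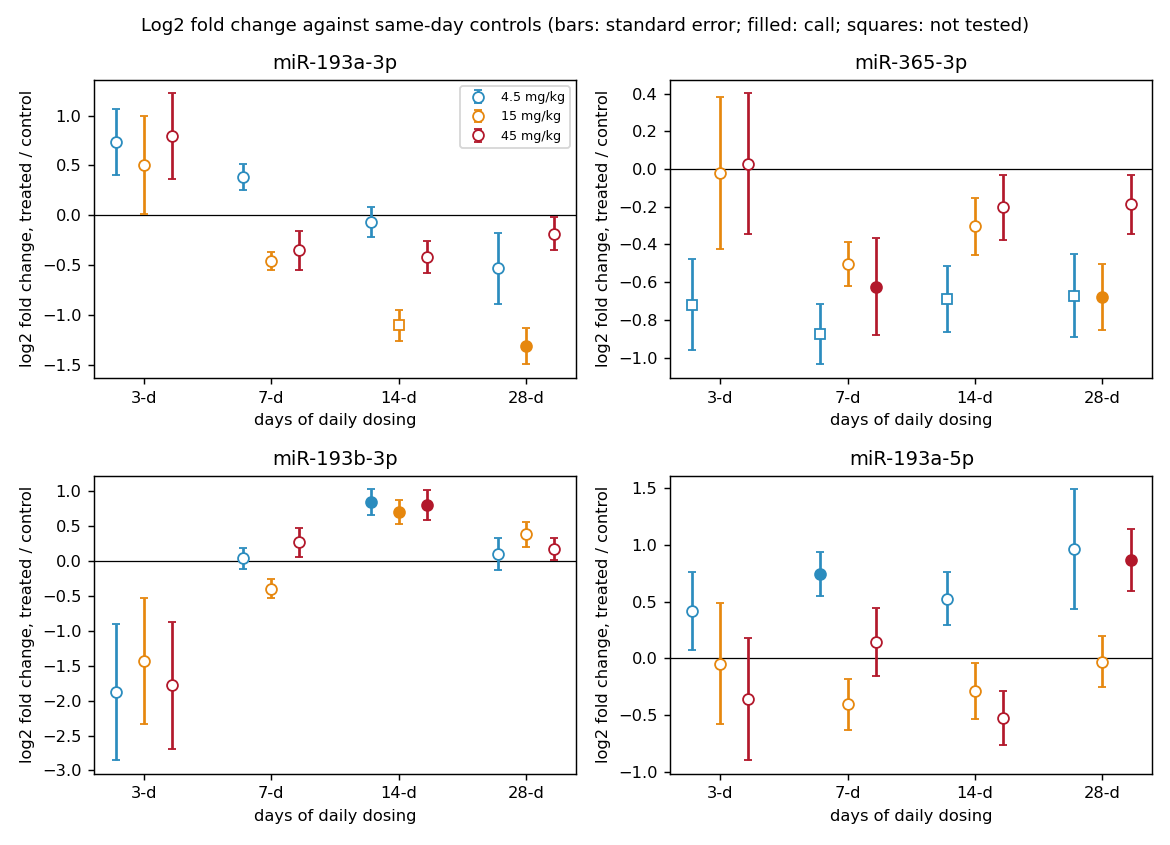
Log2 fold change of each dose against the controls of the same day for the 4 tested miRNAs, with standard errors as bars. Filled points are DEM calls and squares mark the conditions known beforehand, given without a test. The middle dose of miR-193a-3p reaches -1.31 at 28-d and the 3 doses of miR-193b-3p are all filled at 14-d.

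miR-193a-3p rose with time in the vehicle controls. The 3 control libraries read 127, 238 and 260 normalized RPM at 3-d, where 127 is the library that stood apart, 228, 264 and 267 at 7-d, 329, 393 and 396 at 14-d, and 443, 529 and 550 at 28-d. The 28-d controls were thus above every other control. In a single fit of all 48 libraries the 28-d controls exceeded the 7-d controls by 1.01 ± 0.26 (log2, SE; edgeR adjusted p = 0.0121, and 5.98% of all miRNAs passed in this contrast) and the 3-d controls by 1.25 ± 0.27 (edgeR adjusted p = 0.000802; 39.5% passed). Without control 3-d replicate 1 the second difference was 1.03 (edgeR adjusted p = 0.0105). The rise from 3-d to 14-d, 0.81 (edgeR adjusted p = 0.0260; 20.9% passed), was 0.58 without that library (edgeR adjusted p = 0.286), and it did not pass without 14-d replicate 13 or 15 (0.77 and 0.76, edgeR adjusted p = 0.0667 and 0.0793) or with library size alone as the scaling (0.59, edgeR adjusted p = 0.0772). The difference between 28-d and 7-d did not pass without 7-d replicate 4 (0.94, edgeR adjusted p = 0.0748) or without 28-d replicate 17 or 18 (0.94 and 0.97, edgeR adjusted p = 0.0622 and 0.0555).

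At the middle dose miR-193a-3p was low from 7-d onward. The 7-d libraries read 181, 184 and 187 normalized RPM, and all 3 were below the 7-d controls, as for 21.9% of the tested miRNAs in this condition. The log2 fold change was -0.46 ± 0.09 (edgeR adjusted p = 0.0076), a fold below the threshold of the rule. At 14-d the libraries read 150, 182 and 190 against 329 to 396 in controls, with no overlap (17.6% of all miRNAs lay wholly lower) and a log2 fold change of -1.10 ± 0.15, given without a test. At 28-d they read 174, 209 and 229 against 443 to 550, again with no overlap (19.6% lay wholly lower), a log2 fold change of -1.31 ± 0.18 (edgeR adjusted p = 0.000463), where 12% of all miRNAs were called lower. The gap to the controls was widest at 28-d, and between 7-d and 28-d the middle dose itself moved by 0.15 ± 0.26 (edgeR adjusted p = 0.860) while the controls moved by 1.01. Against all 12 controls pooled over time, the 28-d value was -0.72 and was not called (unadjusted p = 0.0531, edgeR), and it was -0.80 and called without control 3-d replicate 1 in the pool (edgeR adjusted p = 0.0334). Markers of other cells moved in the same libraries. The red blood cell miRNAs summed to 1780 to 2038 RPM in the middle dose at 7-d (4015 to 6013 RPM in controls, 2 of 3 called lower), to 2073 to 3309 RPM at 14-d (3554 to 4888 RPM, 3 of 3 called lower) and to 1656 to 3353 RPM at 28-d (2753 to 4574 RPM, 2 of 3 called lower). The sum of the 5 stellate or smooth muscle miRNAs lay wholly below controls at 7-d (34856 to 41985 against 42423 to 46697 RPM, 1 of 5 called higher) and 14-d (30974 to 36950 against 39714 to 42470 RPM, none called). It lay wholly above them at 28-d (37343 to 39066 against 23284 to 37237 RPM, 2 of 5 called higher). The sum of the 5 leukocyte miRNAs was wholly above controls at 7-d (3787 to 4029 against 3111 to 3720 RPM) and 28-d (4811 to 6229 against 3563 to 4491 RPM), with none called. The hepatocyte sum was wholly above controls at 28-d (324132 to 350099 against 287157 to 312860 RPM). However, 2 of its 5 members were called lower there and none higher (median log2 fold change -0.45). The part of these cell types in the results was not tested.

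The low and the high dose followed other courses for miR-193a-3p. At 3-d the low dose read 333, 347 and 370 and the high dose 262, 405 and 423, all above the controls (127 to 260), as for 28.6% and 17.6% of all miRNAs, with log2 fold changes of 0.74 ± 0.33 and 0.79 ± 0.43 (edgeR adjusted p = 0.270 and 0.432). Without control 3-d replicate 1 they were 0.49 ± 0.11 and 0.54 ± 0.28 (edgeR adjusted p = 0.0285 and 0.478), the first with a fold below 1.5. At 7-d the low dose, with 296, 311 and 385, was still above its controls (30.2% of all miRNAs lay wholly higher) at 0.39 ± 0.13 (edgeR adjusted p = 0.0403), again a fold below 1.5. The high dose read 163, 185 and 247 at 7-d and overlapped its controls. At 14-d it read 234, 294 and 308, all below the controls (14% of all miRNAs lay wholly lower), at -0.42 ± 0.16 (edgeR adjusted p = 0.185). By 28-d the high dose had risen to 406, 432 and 502, which was 1.17 ± 0.27 above its own 7-d level (edgeR adjusted p = 0.00369, and 9.63% of all miRNAs passed) and overlapped the 28-d controls. In the low dose at 28-d, replicate 29 read 560 and the other 2 libraries 235 and 258, a spread as wide as that between groups (SD 181, n = 3).

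The doses were compared directly in the fit of 48 libraries. At 7-d the middle dose was lower than the low dose by 0.85 on the log2 scale (difference -0.85 ± 0.26, edgeR adjusted p = 0.0147; 28.9% of all miRNAs passed), which did not pass without low-dose replicate 48 (-0.72, edgeR adjusted p = 0.0750) or with library size alone (-0.62, edgeR adjusted p = 0.0509). At 28-d the high dose exceeded the middle dose by 1.13 ± 0.27 (edgeR adjusted p = 0.00686; 10.6% passed). At 28-d the middle dose differed from the low dose by -0.78 ± 0.26 (edgeR adjusted p = 0.0636), and at 7-d the high dose from the low dose by -0.74 ± 0.26 (edgeR adjusted p = 0.0735). These 2 adjusted p-values became 0.0301 and 0.0349 when control 3-d replicate 1 was left out of the fit, although neither contrast contains it. The levels of miR-193a-3p thus had no single order of dose: of the group means, the lowest was the middle dose at 14-d (174 ± 21.1 normalized RPM, SD, n = 3) and the highest the 28-d control (507 ± 56.8), a ratio of 2.92. In the order of the 16 group means, the ranges of neighbouring groups overlapped in 14 of 15 pairs.

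miR-365-3p was lower than in controls at the low dose at all 4 times. This is the pattern for which it was picked, and it is described without a test. The low-dose libraries read 186, 186 and 194 normalized RPM at 3-d (270 to 339 in controls), 150, 204 and 206 at 7-d (288 to 379), 182, 201 and 234 at 14-d (290 to 391), and 203, 251 and 293 at 28-d (373 to 432). No low-dose library overlapped the controls of its day, and 11%, 22.9%, 17.3% and 17.6% of all miRNAs lay wholly lower in these conditions. The mean was the lowest of the 4 doses at the first 3 times, and at 28-d the middle dose was as low (248 ± 32.5 beside 249 ± 45.2, SD, n = 3). The log2 fold changes were -0.72 (3-d), -0.87 (7-d), -0.69 (14-d) and -0.67 (28-d), with standard errors between 0.16 and 0.24, and the first was -0.69 without control 3-d replicate 1. Marker miRNAs moved in the same libraries. The hepatocyte sum of the low dose was wholly above controls at every time, with 337210 to 338283 RPM at 3-d (150925 to 305770 in controls), 353018 to 373002 at 7-d (289617 to 314579), 351862 to 371900 at 14-d (284698 to 315480) and 319947 to 373606 at 28-d (287157 to 312860). Of its 5 members, 1 was called higher at 7-d, 1 higher and 1 lower at 14-d, and 1 lower at 28-d. The median log2 fold changes of the list ran from -0.15 (7-d) to 0.33 (3-d). The leukocyte sum was wholly below controls at 3-d (2239 to 2804 against 2945 to 3574 RPM), 7-d (1839 to 2563 against 3111 to 3720 RPM) and 14-d (2105 to 2458 against 3167 to 3861 RPM). Of its 5 members, 1, 2 and 2 were called lower at these times, and 1 was called higher at 7-d. The medians of this list were 0.32, -0.29 and -0.44. The epithelium or bile duct sum was wholly below controls at 7-d (355 to 484 against 1059 to 1072 RPM) and 14-d (402 to 611 against 630 to 938 RPM). Of its 5 members, 2 were called lower at 7-d, and at 14-d 1 was called lower and 2 higher. The part of these cell types in the low level of miR-365-3p was not tested. The threshold of the rule, a fold of 1.5, is 0.58 on the log2 scale, so that the smallest of these values, -0.67, lay inside it, and among the other doses -0.62 (high dose, 7-d) lay just inside and -0.50 (middle dose, 7-d) just outside.

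The other doses of miR-365-3p were lower in part of the conditions, and 2 of the 8 that could be tested were called. These tests use the same controls as the low-dose values by which miR-365-3p was picked, and they are not independent of that choice. The middle dose at 28-d read 212, 255 and 276, below every control, at -0.68 ± 0.17 (edgeR adjusted p = 0.0140; 12% of all miRNAs were called lower and 19.6% lay wholly lower). With library size alone as the scaling this was -0.40, and without middle-dose replicate 39 it was -0.58, both folds below 1.5. The high dose at 7-d read 149, 231 and 286, also below every control (288 to 379, and 12.6% of all miRNAs lay wholly lower), at -0.62 ± 0.26 (unadjusted p = 0.0426 and adjusted p = 0.154, edgeR; 3.32% called lower). Without control replicate 5 or 6 it was -0.54 or -0.59, without high-dose replicate 25 or 27 it was -0.65 or -0.41, and none of these was called. In these high-dose libraries the red blood cell miRNAs summed to 859 to 3748 RPM (4015 to 6013 RPM in the controls, 2 of 3 called lower). The epithelium or bile duct miRNAs summed to 444 to 937 RPM (1059 to 1072 RPM in the controls, 2 of 5 called lower and 1 higher). The part of these cell types in the result was not tested. The middle dose at 7-d, 229, 247 and 249, was at -0.50 ± 0.12 (edgeR adjusted p = 0.0131), a fold of 0.706, and it was called at -0.61 without control replicate 4. At 3-d the log2 fold changes of the middle and the high dose were -0.02 ± 0.40 and 0.03 ± 0.37. Like miR-193a-3p, miR-365-3p rose within the high dose between 7-d and 28-d, by 0.65 ± 0.20 (edgeR adjusted p = 0.0340; 9.63% passed), and this did not pass under 2 of the 4 other settings or without 5 of the 6 libraries in turn. Its group means lay between 187 ± 32 (low dose, 7-d) and 396 ± 31.1 (28-d control, SD, n = 3), a ratio of 2.13, and all 15 pairs of neighbours in the order overlapped.

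miR-193b-3p was higher at 14-d at all 3 doses. The 14-d controls read 57.3, 75.0 and 84.7 normalized RPM, the low dose 124, 131 and 132, the middle dose 106, 121 and 124, and the high dose 99.7, 129 and 148. No treated library overlapped these controls, and 32.9%, 23.9% and 10.6% of all miRNAs lay wholly higher at the 3 doses. The log2 fold changes were 0.84 ± 0.18, 0.69 ± 0.17 and 0.80 ± 0.21 (edgeR adjusted p = 0.0047, 0.0158 and 0.112), in conditions where 22.9%, 12% and 5.65% of all miRNAs were called higher. The 3 calls share the same 3 controls and are not independent, and the 14-d control mean, 72.3 ± 13.9 (SD, n = 3), was the lowest of the 16 group means. The 28-d controls read 83.3 to 94.7 and the 7-d controls 113 to 149. Against 11 controls pooled over time, without control 3-d replicate 1, the differences were 0.33, 0.18 and 0.29, and none was called. Without control replicate 14 the middle-dose value was 0.55 and was not called. In the fit of 48 libraries the values were 0.84, 0.69 and 0.80 and none was called either. That fit shares its estimate of spread over all groups, and so includes control 3-d replicate 1, with miR-193b-3p at 13.5 times the median. These 3 contrasts were not run in that fit without this library, and its part in the lost calls was not tested. The stellate or smooth muscle sum at 14-d was wholly above controls (39714 to 42470 RPM) at the low dose (42836 to 47069 RPM) and the high dose (44922 to 47831 RPM). Of its 5 members, however, 1 was called lower at the low dose and 3 at the high dose. None was called higher, and the median log2 fold changes were -0.15 and -0.60. The middle dose had the lower red blood cell and stellate sums and the low dose the hepatocyte, leukocyte and epithelium sums given above. The part of these cell types in these results was not tested.

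At 3-d the miR-193b-3p comparison rested on control 3-d replicate 1. With it, the log2 fold changes of the 3 doses were -1.88 ± 0.97, -1.43 ± 0.90 and -1.78 ± 0.90 (edgeR adjusted p = 0.325, 0.874 and 0.413). Without it they were 0.11, 0.56 and 0.21 (edgeR adjusted p = 0.773, 0.994 and 0.822), so the sign turned. The same library set the fall of the controls from 3-d to 7-d, -1.97 (edgeR adjusted p = 0.00305; 10.3% of all miRNAs passed) with it and -0.01 (edgeR adjusted p = 0.995) without it. From 3-d to 14-d the controls fell by 2.81 with it (edgeR adjusted p = 0.000193) and by 0.86 without it (edgeR adjusted p = 0.0419). That this library also held 24.9 times the median red blood cell signal is a measured fact beside this, and its part in the miR-193b-3p level was not tested. At 7-d the middle dose read 86.7, 103 and 106, below all controls (21.9% of all miRNAs lay wholly lower), at -0.40 ± 0.13 (edgeR adjusted p = 0.0509), and no other 7-d or 28-d condition passed p below 0.05.

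miR-193a-5p, the minor arm, was measured with few reads (median 55.5 per library). At 3-d the low dose read 7.71, 8.35 and 8.72 normalized RPM and overlapped the controls (5.35 to 11.3), at 0.42 ± 0.34 (edgeR adjusted p = 0.488). Without control 3-d replicate 1 this was 0.62 ± 0.21, a fold of 1.53 that meets the DEM rule (unadjusted p = 0.0241 and adjusted p = 0.0757, edgeR), and the middle and high dose went from -0.05 and -0.36 to 0.17 and -0.12. At the low dose it read 7.45, 8.06 and 9.73 normalized RPM at 7-d against 4.45 to 5.71 in controls, a log2 fold change of 0.74 ± 0.20 (edgeR adjusted p = 0.0153; 18.3% of all miRNAs were called higher and 30.2% lay wholly higher). The low dose at 14-d, 7.96, 9.76 and 9.95, was above the controls (6.08 to 6.88; 32.9% of all miRNAs lay wholly higher) at 0.53 ± 0.24 (edgeR adjusted p = 0.0969), a fold below 1.5. At 28-d the high dose, 5.48, 5.89 and 9.66, was above the controls (3.77 to 3.87) at 0.87 ± 0.28 (unadjusted p = 0.0105 and adjusted p = 0.0902, edgeR; 13% called higher, 21.6% lay wholly higher). Without high-dose replicate 21 that value was 0.57 and was not called. The high dose at 14-d, 3.57, 4.49 and 5.46, lay wholly below the controls (14% of all miRNAs lay wholly lower) at -0.53 ± 0.24 (edgeR adjusted p = 0.257). The middle dose at 7-d was lower than the low dose (difference -1.15 ± 0.35, edgeR adjusted p = 0.0135), and so was the high dose at 14-d (-1.05 ± 0.35, edgeR adjusted p = 0.0352; 19.3% of all miRNAs passed). The first did not pass without middle-dose replicate 36 or low-dose replicate 48 (-0.99 and -1.04, edgeR adjusted p = 0.0735 and 0.0584). The second did not pass under any other scaling, at -0.88 with TMM (edgeR adjusted p = 0.0899), -0.87 with DESeq2 size factors (edgeR adjusted p = 0.0979) and -0.68 with library size alone (edgeR adjusted p = 0.144), nor without a filter (-0.79, edgeR adjusted p = 0.234), nor without high-dose replicate 7 or 9 or low-dose replicate 40 or 42 (-0.90 to -1.06, edgeR adjusted p from 0.0860 to 0.138).

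The effect of treatment was also compared between time points. For miR-193a-3p the middle-dose effect at 28-d was below that at 3-d by 1.80 on the log2 scale (difference -1.80 ± 0.38, edgeR adjusted p = 0.00402; 4.98% of all miRNAs passed), and it was -1.57 without control 3-d replicate 1 (edgeR adjusted p = 0.0150). The low dose at 28-d against 3-d, -1.25 ± 0.37 (edgeR adjusted p = 0.0452; 5.32% passed), and the high dose at 14-d against 3-d, -1.19 ± 0.37 (edgeR adjusted p = 0.0212; 22.3% passed), did not pass without that library (edgeR adjusted p = 0.122 and 0.0777), nor under any of the 3 other scalings or without a filter. Of the 12 libraries of its contrast, the low-dose difference passed only without control 3-d replicate 2 or 3 or low-dose 28-d replicate 29, and the high-dose difference also failed to pass without 14-d replicate 7 or 3-d replicate 22 or 24 of that dose. For miR-193b-3p the 4 that passed all contrast with 3-d, the low dose at 14-d (9.30% of all miRNAs passed) and the high dose at 7-d (6.64%), 14-d (22.3%) and 28-d (8.64%), and none of these passed without that library. For miR-365-3p and miR-193a-5p no difference of this kind passed in the contrasts that could be tested.

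The ratio of 2 miRNAs within a library does not depend on the scaling between libraries. For the neighbours miR-193a-3p and miR-365-3p the log2 ratio of reads averaged -0.13 ± 0.52 in the 12 control libraries, 0.73 ± 0.46 at the low dose, -0.35 ± 0.51 at the middle dose and 0.09 ± 0.42 at the high dose (SD, n = 12 each). At the low dose, all libraries of the first 3 times had more reads of miR-193a-3p than of miR-365-3p, with group means between 0.80 and 0.89. At 28-d the low-dose group mean was 0.39 ± 0.93 (SD, n = 3), with 2 of the 3 libraries below 0. In controls the ratio averaged -0.64 at 3-d, or -0.28 without replicate 1, then -0.43 at 7-d, 0.18 at 14-d and 0.35 at 28-d. Treated minus control was 0.96 at 3-d (0.61 without that replicate), 0.53 at 7-d, -0.14 at 14-d and -0.20 at 28-d. Over all 36 treated and 12 control libraries the difference was 0.29, given without a test since the conditions known beforehand are in it. Over the 21 treated libraries outside those conditions it was 0.08 (2-sided permutation test, p = 0.678 and adjusted over the 3 ratios p = 0.745).

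**Figure D3:**
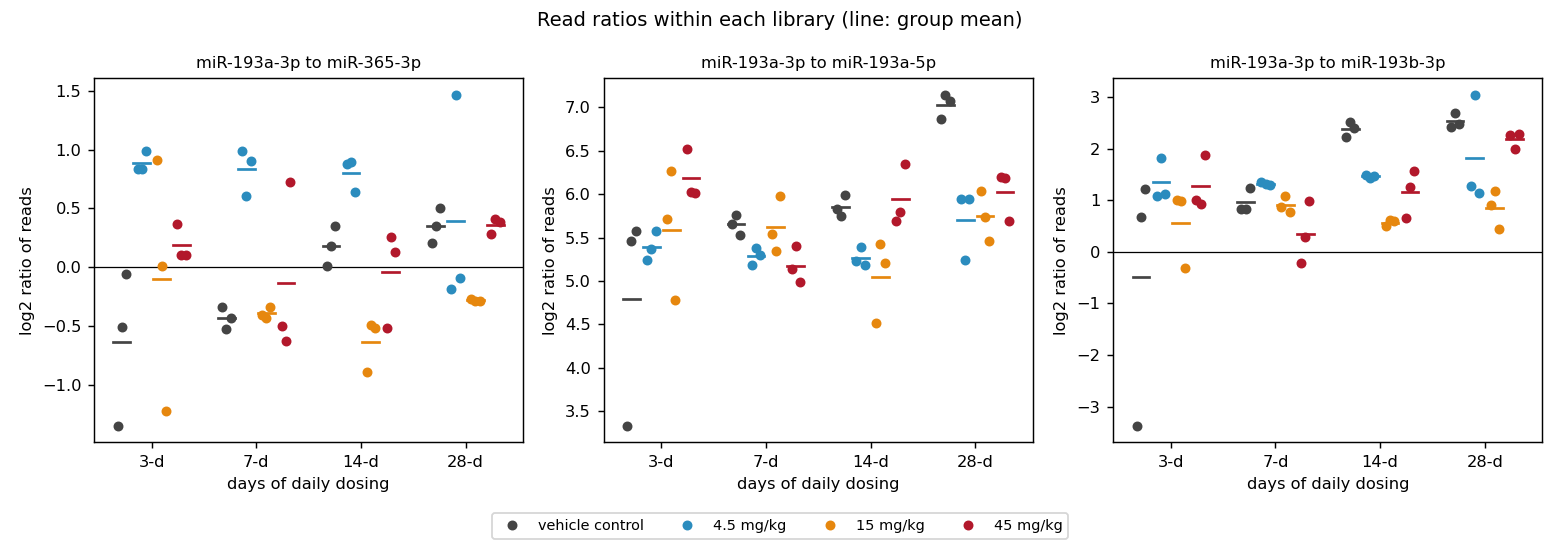
Log2 ratio of reads within each library by days of dosing, with 1 point per library, coloured by dose, and a line at the mean of each group of 3. At 4.5 mg/kg the ratio of miR-193a-3p to miR-365-3p averages 0.80 to 0.89 from 3-d to 14-d, and at 28-d the control ratio of the 2 miR-193a arms, 7.02, is above all treated groups.

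The ratio of the 2 arms of miR-193a, miR-193a-3p to miR-193a-5p, rose in controls from 5.65 ± 0.12 at 7-d and 5.85 ± 0.12 at 14-d to 7.02 ± 0.15 at 28-d (log2, SD, n = 3). At 28-d the treated groups averaged 5.71, 5.75 and 6.03 at the low, middle and high dose, and all treated libraries were below all controls. The 28-d controls held only 26 to 46 reads of miR-193a-5p (3.20 to 3.63 RPM). How often other ratios separate in this way was not computed. Treated minus control was 0.93 at 3-d (0.21 without control replicate 1), -0.29 at 7-d, -0.43 at 14-d and -1.20 at 28-d. Outside the known condition the difference over all times was -0.20 (permutation test, adjusted p = 0.745), and it was -0.42 without control 3-d replicate 1 as well (adjusted p = 0.0399). The ratio of the miRNAs with a shared seed, miR-193a-3p to miR-193b-3p, had control means of 0.97 (7-d), 2.38 (14-d) and 2.52 (28-d). Treated minus control was 1.55 at 3-d (0.11 without control replicate 1), -0.11 at 7-d, -1.32 at 14-d and -0.91 at 28-d. Outside the known condition the difference over all times was -0.14 (adjusted p = 0.745, permutation test), and -0.57 without that replicate as well (adjusted p = 0.0399). For both ratios the control library that stood apart decided the call, and the test pools times between which the control ratios and the differences change.

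**Figure D4:**
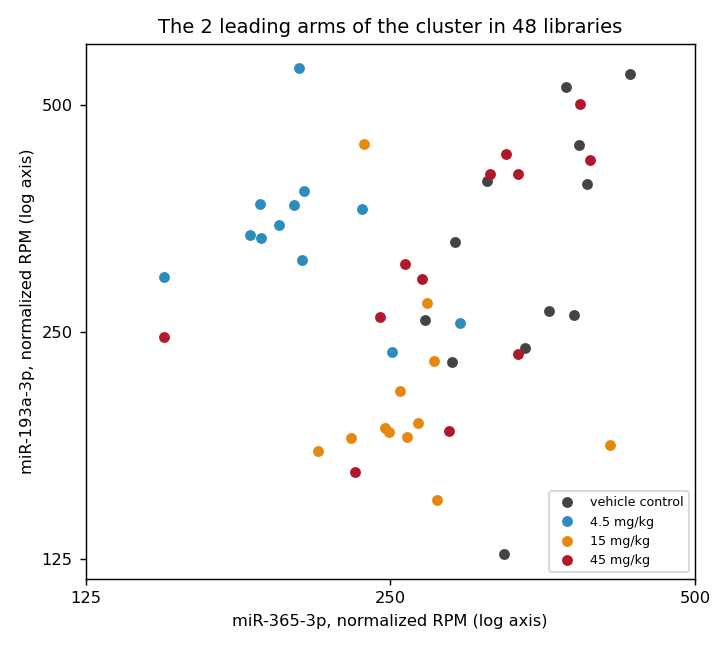
Normalized RPM of miR-193a-3p (vertical) against miR-365-3p on log axes, 1 point per library, coloured by dose. The horizontal axis is miR-365-3p. The 4.5 mg/kg libraries lie mostly to the left and the 15 mg/kg libraries mostly at the bottom, and over all 48 libraries Pearson's r is 0.12.

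Across the 48 libraries Pearson's r of log2 normalized RPM between miR-193a-3p and miR-365-3p was 0.12 (Spearman's rho 0.14), and it was -0.28 (rho -0.07) for the deviations from the 16 group means. Between the 2 arms of miR-193a r was 0.33 (rho 0.32) and 0.38 for the deviations, and the latter was 0.64 without control 3-d replicate 1. Between miR-193a-3p and miR-193b-3p r was -0.40, and -0.26 without that library. Between miR-193a-5p and miR-365-3p r was -0.33 (rho -0.28), and -0.37 without that library. The points share library depth and scaling, and these values are descriptions.

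Over the 16 group means the miRNAs most like miR-193a-3p were miR-22-3p, let-7e-5p and miR-30d-3p, with Pearson's r between 0.80 and 0.81. Those most like miR-365-3p were miR-23b-3p (r = 0.87), miR-145-5p (0.87), a miRNA of smooth muscle and stellate cells, and miR-1843a-3p (0.85). For miR-193b-3p they were miR-324-3p, miR-151-3p and miR-6328 (0.90, 0.87 and 0.86), and for miR-193a-5p miR-194-3p, let-7b-5p and miR-181a-1-3p (0.89, 0.86 and 0.83). Among the other 300 miRNAs, miR-365-3p ranked 104 in likeness to miR-193a-3p (r = 0.27). Without control 3-d replicate 1 the 3 names kept 1 for miR-193a-3p (miR-30d-3p), 1 for miR-365-3p (miR-145-5p), 1 for miR-193a-5p (miR-194-3p) and none for miR-193b-3p.

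Of a list of 20 miRNAs linked to brown fat or muscle, 16 were tested. Over the 12 conditions 13% of their 192 tests were called higher and 9.38% lower, beside 12.1% and 5.98% of all miRNAs. The median log2 fold change was -0.003 beside 0.06 over all miRNAs. The list was fixed with earlier results of these data known, so its shares are no test of brown fat or muscle miRNAs. Of its 25 higher calls, 12 were of miR-34a-5p, and of its 18 lower calls, 6 were of miR-455-3p. The 4 called most often were miR-34a-5p, a target of p53, higher in 12 of 12 conditions (log2 fold changes from 1.40 to 4.88), miR-455-3p, lower in 6 (-2.63 to 0.20), miR-182, higher in 5 (0.05 to 1.30), and the muscle miRNA miR-133a-3p, lower in 4 (-1.45 to 0.09). Among the markers of cell types, the 3 red blood cell miRNAs (miR-144-3p, miR-486 and miR-451-5p) were called lower in 15 of 36 tests, and higher in 1 (miR-144-3p), and the 5 hepatocyte miRNAs lower in 6 of 60 (miR-122-3p in 5 of these) and higher in 2 (both miR-122-5p). The leukocyte list was lower in 6 and higher in 4 of 60 tests. In it miR-150-5p was lower in 4, miR-155-5p higher in 3, miR-223-3p lower in 2 and miR-142-3p higher in 1. The epithelium or bile duct list was lower in 8 and higher in 5 of 60. There miR-429 was lower in 4, miR-200c-3p higher in 4, miR-200b-3p lower in 3 and miR-200a-3p higher in 1. The stellate or smooth muscle list was lower in 7 and higher in 6 of 60. Of its members, miR-145-5p was lower in 4 and miR-199a-3p lower in 1, while miR-199a-5p and miR-214-3p were each higher in 3 and lower in 1. Of 4 skeletal or heart muscle miRNAs only miR-133a-3p was tested. The part of any of these in the miR-193 and miR-365 results was not tested.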

How the data were processed

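The files hold miRNA-seq counts of 48 rat livers, single-end reads of small RNA libraries. Raw read counts per miRNA, not normalized, were deposited by the authors, who used miRDeep2 with miRBase release 21 on adaptor-trimmed reads between 18 and 25 bases long. The submitters' notes name genome build rn5. For a mature miRNA listed under several precursors the row with the most reads was used (each member has 1 row).

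The main test was the quasi-likelihood F-test of edgeR (version 4.0.16, R version 4.3.3) after scaling by the upper quartile, with 6 libraries per condition. A miRNA was tested where 3 or more of the 48 libraries reached 5 RPM. Dose differences, effects over time and controls over time came from 1 fit of 48 libraries, with Benjamini-Hochberg adjustment over the 301 miRNAs within each contrast. Log2 ratios used counts plus 0.5 and 100000 resamples (SciPy 1.17.1), with p-values only for libraries outside the known conditions, and levels for correlations log2 of normalized RPM plus 0.5. The standard error is the log2 fold change divided by the square root of F. On simulated data for the 7-d middle dose, the test called 85 of 85 changed miRNAs and 3 of 216 unchanged ones. The simulated folds were 2 or 4, up or down, with the same dispersion for every miRNA. Many folds reported here were below 2 and the spread differed between groups, so these counts give no error rate or power for the real data.

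Replicates are separate rats per the study's methods, and no 2 libraries held the same counts. With 3 against 3, the smallest exact permutation p is 0.1, so no such test was used for single miRNAs. A detection limit of 3 reads is 10.2 RPM in control 3-d replicate 1 and 0.325 RPM in replicate 2.

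The miRNAs, the lists and the tests were chosen with earlier results of these data known. The rule for named miRNAs was every member, and for each tested member the 3 miRNAs with the highest Pearson's r over the 16 group means. Of each list the 4 called in most conditions were named, or those with a call where fewer than 4 had one. Alternatives were TMM, DESeq2 (1.42.0) size factors and its Wald test, library size alone, other filters, edgeR's exact test, pooled controls, 1 fit of 48 libraries, adjusted p, summed precursor rows and leaving out each library. Pooled controls without control 3-d replicate 1, time courses within a dose, and ratios or correlations without named libraries or conditions were chosen after seeing the data.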

Additional observations from a re-analysis of the deposited data

Results flagged for a closer look

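The following differences between doses, or between times in the effect of a dose, passed an adjusted p of 0.05 in the fit of 48 libraries (log2 scale, edgeR). Between doses, miR-193a-3p differed by -0.85 (middle minus low dose, 7-d) and by 1.13 (high minus middle dose, 28-d), and miR-193a-5p by -1.15 (middle minus low dose, 7-d) and by -1.05 (high minus low dose, 14-d). Between time points, the miR-193a-3p effect differed by -1.80 (middle dose, 28-d minus 3-d), -1.25 (low dose, 28-d minus 3-d) and -1.19 (high dose, 14-d minus 3-d). The first of these 3 also passed without control 3-d replicate 1 (-1.57, adjusted p = 0.0150), and the other 2 did not.

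For miR-193b-3p the effect differed by 2.68 (low dose, 14-d minus 3-d), 2.0 (high dose, 7-d minus 3-d), 2.54 (high dose, 14-d minus 3-d) and 1.91 (high dose, 28-d minus 3-d). Without control 3-d replicate 1 the 4 differences were 0.72, 0.05, 0.58 and -0.04, and none passed (edgeR adjusted p = 0.391, 0.976, 0.270 and 0.961).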

How the results depend on the processing

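No paired analysis was possible because the replicate numbers run from 1 to 48 and no 2 groups share one. The cause of the changes below was not tested.

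Number of conditions called, beside the value reported: miR-193a-3p 1, with 3 in 1 fit of 48 libraries, 3 with 11 pooled controls and 2 with 12. miR-193a-5p 2, with 1 by adjusted p. miR-193b-3p 3, with 6 by DESeq2's Wald test, 5 without a filter and 0 with 12 pooled controls. miR-365-3p 2, with 1 by adjusted p, pooled controls (12 or 11) or summed rows and 0 with library size alone. Leaving out 1 library gave 1 to 2, 1 to 3, 2 to 6 and 1 to 3.

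Dose differences called for miR-193a-3p were 2, with 4 under TMM, DESeq2 size factors or no filter and 1 with library size alone (1 to 4 when 1 library was left out), and for miR-193a-5p 2, with 1 with library size alone (1 to 3), and its high minus low dose call at 14-d was lost under all 4 settings. Effect differences over time for miR-193a-3p were 3, with 1 under each of these 4 settings (1 to 5), and for miR-193b-3p 4, with 8, 8, 7 (no filter) and 7 (0 to 8). For control differences over time, miR-193a-5p had 0 and 1 with library size alone. Leaving out 1 library gave 2 to 3 for miR-193a-3p and 1 to 3 for miR-193b-3p. The ratio differences were -0.47 (arms), -0.62 (shared seed) and 0.18 (cluster) without control 3-d replicate 1, not tested since known conditions are in them. Without that library and the known conditions they were -0.42, -0.57 and -0.034, the last with its sign turned.

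Signs also turned for miR-193b-3p at 14-d with 12 pooled controls (-0.61, -0.75 and -0.65 at the low, middle and high dose), at 3-d without control replicate 1 (0.11, 0.56 and 0.21, against -2.36, -1.92 and -2.27 without replicate 3) and with 11 pooled controls (0.46, 0.91 and 0.56), and for the high-dose effect at 28-d minus 3-d without control 3-d replicate 1 (-0.045, and 2.41 without control 3-d replicate 3). For miR-193a-3p the 7-d low-dose value was -0.023 with 12 and -0.10 with 11 pooled controls, the 3-d middle-dose value -0.17 and -0.25, and that of the 3-d low dose -0.017 with 11. Low-dose 28-d minus 3-d, 0.003, was -0.51, -0.03 and -0.003 without replicates 29, 43 and 44 and 0.22 without 30. Over all miRNAs, 66.9% of calls were higher, with 59.2% to 70.8% under the other scalings. The median of all miRNAs shifted by up to 0.35 (high dose, 3-d, upper quartile). Their low share of the reads kept the minor arms of miR-193b and miR-365 from being tested (means of 0.57 and 0.11 RPM, with no library at 5 RPM). For miR-193a-5p counting error was not set against the spread between rats.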
